A study of Mus musculus with 21 samples.

Results

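Glomeruli of mice lacking Epac1 in podocytes were compared 11 days into an antibody-driven glomerulonephritis with glomeruli of the same genotype that had received PBS. The comparison rests on 7 of the 21 libraries of the series, 4 at day 11 and 3 under PBS, taken by genotype, treatment and day from the sample titles. It is described across genes, and rests on the 3479 of 13898 tested genes whose mean level over the 7 libraries was at least 50 CPM, the usual unit of reads scaled by library size. All mice were females aged 3 months with floxed Epac1 alleles (Epac1fl/fl). Those compared here also carried a Cre recombinase active in podocytes and are called cKO, and the littermates without Cre are called flox. The day 11 mice received nephrotoxic serum intravenously on 2 consecutive days. Glomeruli were cut by laser from frozen kidney sections, and the ends of polyadenylated transcripts were sequenced. Day 11 is the established stage of the disease in this design, and day 4, with 4 cKO libraries, the early stage. The 3 flox PBS and 4 flox day 11 libraries gave the same contrast in mice that keep Epac1.

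Nephrotoxic serum holds antibodies that bind the glomerulus and start an immune nephritis. Podocytes are the epithelial cells whose interlocking foot processes and slit diaphragm cover the outer side of the glomerular capillary, and injured podocytes are known to reorganise their actin cytoskeleton and lose slit diaphragm proteins. Epac1, the product of Rapgef3, lets cyclic AMP activate the small GTPase Rap, a pathway that acts on integrin adhesion and on the cytoskeleton.

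The 7 libraries were not alike in content. Totals were 20487694, 19889645 and 20974784 reads under PBS and 17200905, 16255943, 4550550 and 11436085 at day 11, so every day 11 library was shallower than every PBS library. Mitochondrially encoded transcripts took 5.21% to 7.37% of reads under PBS and 3.52% to 4.55% at day 11, without overlap. The ribosomal RNA gene CT010467.1 took 17.3% to 25.4% under PBS and 22.2% to 39.5% at day 11. The highest share belonged to day 11 replicate 4, which also stood apart for Gm47295 and Gm47299, at 9819 and 10090 CPM against at most 643 and 665 CPM in the other 6 libraries. Podocyte markers were present in every library: Nphs1, which encodes nephrin, was at 489, 472 and 452 CPM under PBS and at 192, 385, 523 and 553 CPM at day 11.

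**Figure D1:**
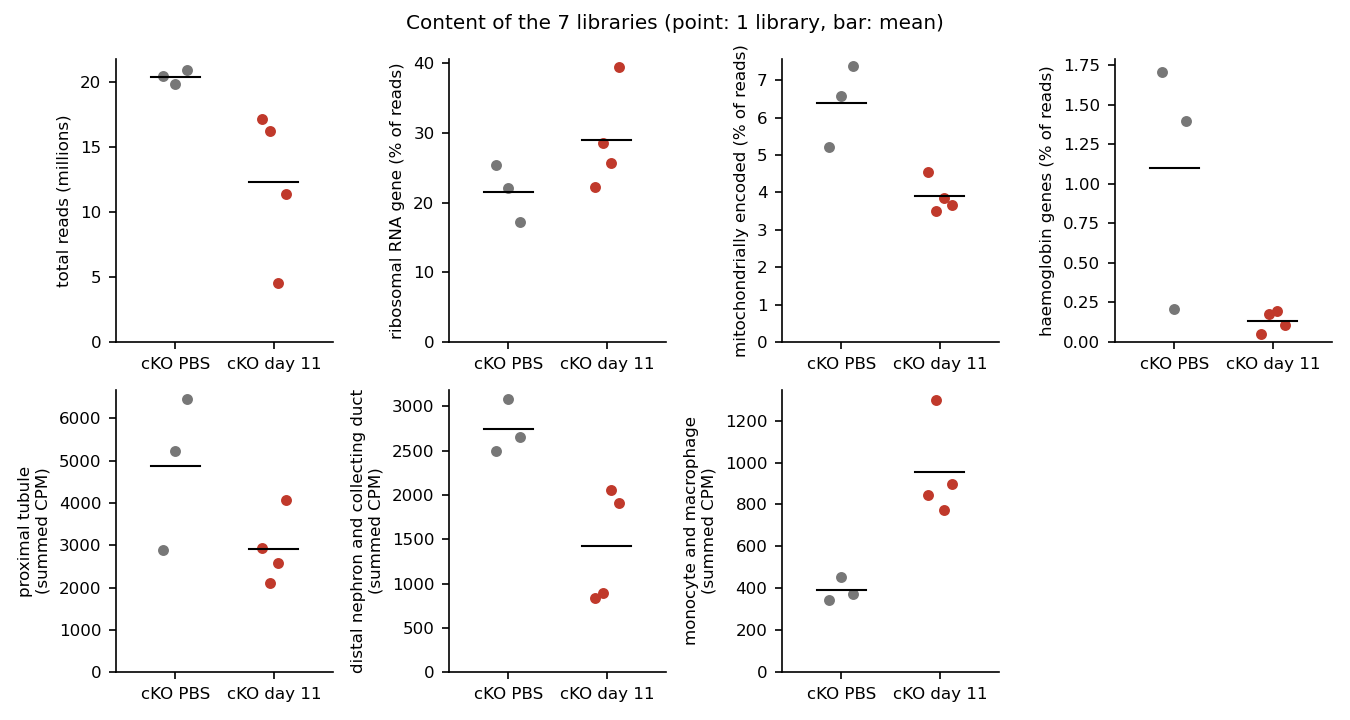
Content of the 3 cKO PBS and 4 cKO day 11 libraries: total reads, percent of reads from the ribosomal RNA gene, mitochondrially encoded genes and haemoglobin genes, and summed CPM of 3 marker lists; each point is 1 library and each bar a group mean. The day 11 libraries lie below the PBS libraries in total reads, mitochondrial share and distal nephron markers, and above them in monocyte and macrophage markers.

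By edgeR's quasi-likelihood test with Benjamini-Hochberg adjustment over all tested genes, 7 genes were called at an adjusted p under 0.05, which is 0.0504% of 13898 and 0.201% of the 3479. Col4a1, Sparc, Csrp1, Tpm1, Spp1 and S100a6 rose (0.172% of the 3479), and Thsd7a fell (0.0287%). Unless another tool is named, called refers to this test. DESeq2 called 53 of the 3479 genes (1.52%) and voom with quality weights 19 (0.546%), the 7 among them in both. At an unadjusted p under 0.05 there were 175 of the 3479 genes (5.03%), 91 higher (2.62%) and 84 lower (2.41%). In 183 genes (5.26%) all 4 day 11 libraries were above all 3 PBS libraries, and in 4.46% of genes all were below. The median log2 fold change over the 3479 genes was −0.015, with quartiles of −0.385 and 0.376, and 48.9% were above 0.

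**Figure D2:**
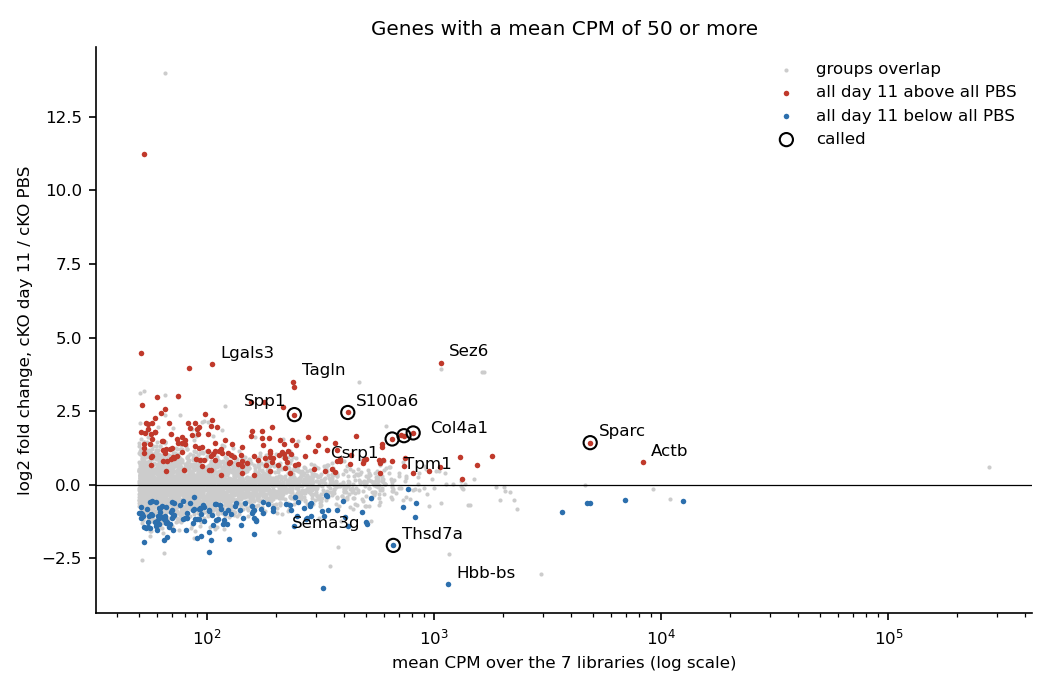
Log2 fold change of cKO day 11 against cKO PBS (vertical axis) against the mean CPM over the 7 libraries (horizontal axis, log scale) for the 3479 genes, 1 point per gene. Red and blue points are genes whose groups do not overlap, 5.26% above and 4.46% below, and the 7 circled genes are those called, 6 of them higher.

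Thsd7a encodes a membrane protein of podocytes that is an autoantigen in some patients with membranous nephropathy. It was at 1206, 1253 and 1045 CPM under PBS and at 318, 217, 404 and 176 CPM at day 11. Every day 11 library was below every PBS library. It fell by 2.07 ± 0.29 on the log2 scale (SE, adjusted p = 0.000638 by edgeR). The 4 cKO day 4 libraries, at 434 to 624 CPM, lay between the 2 groups.

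Col4a1 encodes the alpha 1 chain of type IV collagen, the network-forming collagen of basement membranes. It was at 444, 337 and 245 CPM under PBS and at 982, 1366, 1154 and 1121 CPM at day 11. The lowest day 11 library was above the highest PBS library. It rose by 1.76 ± 0.27 (log2, SE, adjusted p = 0.00158 by edgeR). Col4a2 encodes the alpha 2 chain, and its gene starts 21 bases from that of Col4a1, on the opposite strand (GRCm38 chromosome 8, start sites 11312826 on the minus and 11312805 on the plus strand). It was at 451, 334 and 196 CPM under PBS and at 845, 881, 673 and 747 CPM at day 11, also without overlap. Its log2 fold change was 1.27 ± 0.34 (adjusted p = 0.63), and it was not called. Col4a3 and Col4a4, which encode chains of the mature filtration barrier, were named after their values were seen. The log2 fold change was 0.83 ± 0.40 for Col4a3 and 0.27 ± 0.40 for Col4a4, both uncalled. Col4a5, another such chain, did not reach a mean of 50 CPM. DESeq2 called Col4a2 (1.32, adjusted p = 0.0073).

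Sparc and Spp1 encode secreted proteins of the matrix. Sparc, which binds collagens, was at 3190, 2148 and 2087 CPM under PBS and at 5873, 6819, 7247 and 6646 CPM at day 11. It rose by 1.43 ± 0.22 (log2, SE, adjusted p = 0.00158 by edgeR), with no overlap. Spp1, which encodes osteopontin, was at 44.2, 94.9 and 74.2 CPM under PBS and at 295, 531, 214 and 439 CPM at day 11. The lowest day 11 library was above the highest PBS library. It rose by 2.38 ± 0.47 (adjusted p = 0.036 by edgeR). In the day 4 cKO libraries Spp1 lay at 44.4 to 96.8 CPM, beside the 44.2 to 94.9 CPM of the PBS libraries.

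Csrp1 and Tpm1 belong to the contractile cytoskeleton, and S100a6 encodes a calcium-binding protein. Csrp1, a LIM protein that binds actin-associated proteins, was at 312, 283 and 335 CPM under PBS and at 720, 962, 1004 and 947 CPM at day 11. It rose by 1.55 ± 0.26 (log2, SE, adjusted p = 0.00609 by edgeR). Tpm1, a tropomyosin that stabilises actin filaments, was at 446, 281 and 258 CPM under PBS and at 1062, 1257, 739 and 1103 CPM at day 11, and rose by 1.66 ± 0.29 (adjusted p = 0.00836 by edgeR). S100a6 was at 89.8, 82.9 and 178.5 CPM under PBS and at 636, 899, 378 and 647 CPM at day 11, and rose by 2.45 ± 0.49 (adjusted p = 0.0452 by edgeR). The groups of these 3 genes did not overlap. Not all 7 calls were equally steady: those of Thsd7a, Col4a1 and Sparc passed the threshold under every alternative tried. Csrp1 was lost without PBS replicate 1 or 2, Tpm1 without PBS replicate 2 or 3 or day 11 replicate 2, and Spp1 and S100a6 without any of 6 single libraries (all but day 11 replicate 3, adjusted p up to 0.53 and 0.64) and with a proximal tubule covariate (adjusted p of 0.071 and 0.15). Spp1 was also lost with the replicate number as a block (2.36, adjusted p = 0.12), and S100a6 when only the 3479 genes were tested (2.48, adjusted p = 0.056).

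**Figure D3:**
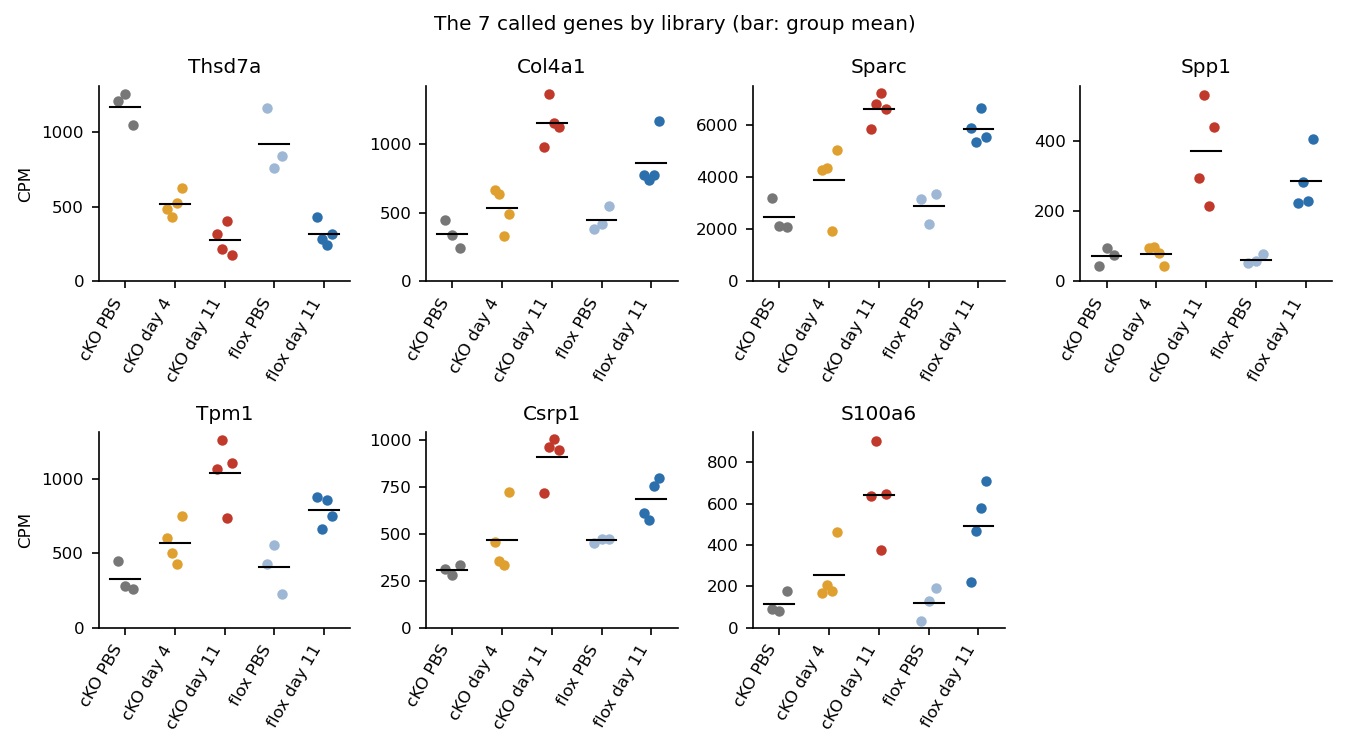
CPM of the 7 called genes in each library (points) with the group mean (bar), for cKO PBS, cKO day 4, cKO day 11, flox PBS and flox day 11. In each panel the 4 cKO day 11 points lie on 1 side of the 3 cKO PBS points, lower for Thsd7a and higher for the other 6.

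The wider gene lists are described by their counts and medians, since a list of genes chosen with these data known supports no test. Counts of list members without overlap stand against 5.26% above and 4.46% below among the 3479 genes. The 50 CPM mean is taken over both groups, so a gene low in 1 group can pass through the other. Lgals3, Lyz2, Tnc and Tgfb2 passed through their day 11 libraries, and Pck1 through its PBS libraries. For such genes, and for the medians of short lists that hold them, the filter favours a difference. The actin and contractile list had 38 members among the 3479 genes: 32 were above 0 and 6 below, the median log2 fold change was 0.692, and 14 did not overlap, all with day 11 above. Its summed level was 18100 to 19120 CPM under PBS and 29240 to 33230 CPM at day 11. Tpm1 and Csrp1 were the 2 members called. Actb, which encodes cytoplasmic actin, was at 6571, 5484 and 5674 CPM against 8635, 11111, 10681 and 9842 CPM, with a log2 fold change of 0.77 ± 0.16 (adjusted p = 0.0893). DESeq2 (adjusted p = 0.00012) and voom (0.0023) called Actb. It was also called by edgeR with median-ratio size factors (adjusted p = 0.019), thinned libraries (0.018) and no low-count filter (0.002). Named after their values were seen, Acta2 (smooth muscle actin) had 1.67 ± 0.40, Flna (the actin crosslinker filamin A) 1.37 ± 0.32, Cald1 (caldesmon) 0.96 ± 0.23, Cfl1 (cofilin) 1.40 ± 0.34 and Myh9 (a nonmuscle myosin) 0.93 ± 0.25, and none was called by edgeR. DESeq2 called all 5 of them, voom called Acta2, Flna and Cfl1 (adjusted p of 0.024, 0.034 and 0.043), and edgeR without a low-count filter called Acta2, Flna and Cald1 (0.011, 0.0089 and 0.014). Tagln, an actin-binding protein of smooth muscle, was at 3.76, 69.2 and 31.0 CPM under PBS and at 273, 468, 387 and 442 CPM at day 11, without overlap (3.50 ± 0.91, adjusted p = 0.63). Vim, the intermediate filament vimentin, named after its values were seen, was at 171, 415 and 349 CPM against 1020, 1268, 825 and 933 CPM (1.70 ± 0.56, not called by edgeR). DESeq2 called Tagln (3.58, adjusted p = 0.00011) and Vim (1.76, adjusted p = 0.01), and voom called Tagln (3.69, adjusted p = 0.048). Because these are bulk samples, a change in the number of cells of a type and a change in RNA per cell cannot be told apart.

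Many genes of the contractile apparatus are known targets of serum response factor, which binds a 10-base element called the CArG box. A CArG box was found in the promoter window (250 bases before to 50 after the start, RefSeq, GRCm38.p6) of 6 of the 35 actin list members with a window (17.1%), against 488 of 27025 symbols in all (1.81%) and 53 of 2733 at 50 CPM or more (1.94%). A similar share was found in the integrin and focal adhesion list, with 2 of 11 (18.2%), but the lists share members. Vcl, 1 of the 6 actin list members with a box, belongs to both, so these shares are not independent. The S100 and annexin list had 1 of 10 (10%), and the interstitial and matricellular matrix list 0 of 13. The pattern searched for was CC, then 6 bases of A or T, then GG. This pattern, though not every box, reads the same on both strands. It was present in 0 of the 7 called genes, and the 6 genes had log2 fold changes from −0.11 to 0.84. The members with a match were thus not those with the largest differences. Boxes that depart from this pattern or lie outside the window were not searched for, so a gene without a match is not shown to lack a box. The stretches of the 3 genes with the highest log2 fold changes among these 6 are shown to let the boxes be compared, with the box in capitals.
Myl9: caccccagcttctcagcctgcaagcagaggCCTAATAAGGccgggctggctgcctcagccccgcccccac
Actg1: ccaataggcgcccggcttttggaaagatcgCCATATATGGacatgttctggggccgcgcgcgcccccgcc
Cnn2: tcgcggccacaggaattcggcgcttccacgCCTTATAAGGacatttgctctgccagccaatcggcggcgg
The Myl9 stretch lies at chr2:156775273-156775342 on the plus strand, that of Actg1 at chr11:120348546-120348615 on the minus strand and that of Cnn2 at chr10:79988514-79988583 on the plus strand. Of these genes Myl9 (a myosin light chain) did not overlap, at 299, 359 and 362 CPM against 707, 490, 633 and 597 CPM (0.84 ± 0.27, not called by edgeR), while Actg1 (0.51 ± 0.49) and Cnn2 (0.45 ± 0.53) did. DESeq2 called Myl9 (0.89, adjusted p = 0.011). A match is a description of these letters, not evidence of binding.

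The interstitial and matricellular matrix list had 23 members at 50 CPM or more, with 21 above 0, a median of 1.44, and 11 without overlap, all with day 11 above. Sparc and Spp1 were called. Tnc, which encodes tenascin C, a matrix glycoprotein of injured tissue, was at 14.8, 10.1 and 1.93 CPM under PBS and at 80.9, 147, 83.7 and 244 CPM at day 11 (3.96 ± 1.33, adjusted p = 0.805). Col1a1, a chain of fibrillar collagen, was at 107, 220 and 349 CPM against 331, 1185, 691 and 1387 CPM, so that the groups overlapped (2.0 ± 0.49, adjusted p = 0.337; called at 2.26 without day 11 replicate 1, adjusted p = 0.046). Named after their values were seen were Col3a1 (1.82 ± 0.52), Col1a2 (1.16 ± 0.38), Fn1 for fibronectin (1.95 ± 1.04), Timp2, an inhibitor of matrix proteases (0.68 ± 0.22), Bgn for biglycan (0.84 ± 0.29), and Loxl2, which crosslinks collagen (1.99 ± 0.94), and none was called by edgeR. DESeq2 called Col1a1, Tnc, Col3a1, Col1a2 and Timp2. The basement membrane list had 14 members, 12 above 0, with a median of 0.24, 3 without overlap and 1 call, Col4a1. Npnt, the integrin ligand nephronectin, was at 482, 586 and 431 CPM against 730, 751, 1347 and 891 CPM (0.90 ± 0.25, adjusted p = 0.65).

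The S100 and annexin list had 13 members, 12 above 0, a median of 0.911 and 8 without overlap, all with day 11 above. S100a6 was its 1 call. Annexins are calcium-dependent membrane-binding proteins. The log2 fold changes were 0.91 ± 0.34 for Anxa5 and 1.04 ± 0.40 for Anxa6, and for genes named after their values were seen 0.59 ± 0.24 for Anxa2 and 0.99 ± 0.42 for S100a11. Tubulins and stathmin had 10 members, 9 above 0, a median of 0.677 and 4 without overlap, all above. Stmn1, which destabilises microtubules, was at 54.0, 18.0 and 30.6 CPM against 138, 164, 248 and 85.3 CPM (2.21 ± 0.79, not called), and Tuba1a (1.31 ± 0.49) and Tuba1c (1.65 ± 0.98) were not called. Of the integrin and focal adhesion list, 10 of 14 were above 0, the median was 0.188, and none was without overlap. Itgb1, the beta 1 integrin chain, had 0.48 ± 0.22, Tln1 (talin) 0.50 ± 0.30 and Itgb5 −0.66 ± 0.43, all uncalled.

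**Figure D4:**
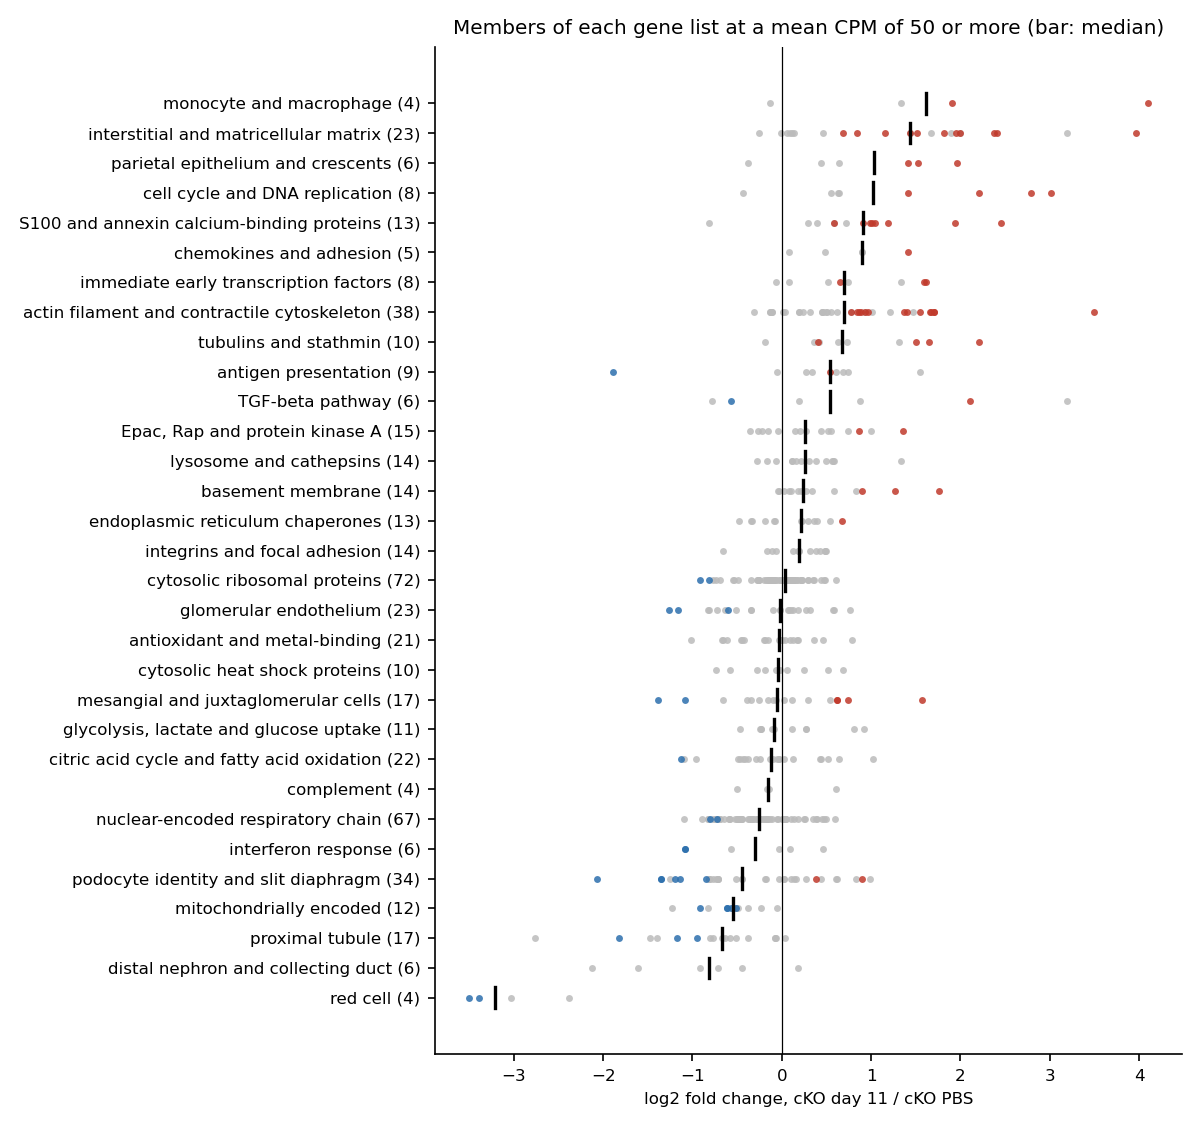
Log2 fold change of cKO day 11 against cKO PBS for the members of each gene list at a mean CPM of 50 or more (number in brackets), 1 point per gene and a bar for the list's median. Red and blue mark members whose groups do not overlap, above and below. Matrix, actin, tubulin and S100 lists have their medians above 0, and podocyte, mitochondrial and tubule lists below 0.

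The podocyte list held 34 members at 50 CPM or more, 13 above 0 and 21 below, with a median of −0.445. Groups did not overlap in 2 members above and 6 below, against 5.26% and 4.46% of the 3479 genes, and Thsd7a was the 1 call. Sema3g, a secreted semaphorin of podocytes, was at 674, 818 and 839 CPM under PBS and at 292, 270, 403 and 254 CPM at day 11, with a log2 fold change of −1.35 ± 0.32 (adjusted p = 0.253). Named after their values were seen were lower and higher members. Magi2, a scaffold protein of the slit diaphragm, had −1.14 ± 0.45, Vegfa, the growth factor that podocytes supply to the endothelium, −0.85 ± 0.34, Plce1, a phospholipase of nephrotic syndrome, −1.19 ± 0.56, Dach1, a nuclear regulator, −1.35 ± 0.59 and Cd2ap, an adaptor at the slit diaphragm, −0.51 ± 0.37, and none was called. Npnt (0.90 ± 0.25, values above) and Nes (the intermediate filament nestin, 0.38 ± 0.28) were the 2 members with all day 11 libraries above, and Actn4, the actin crosslinker alpha-actinin 4, had 0.62 ± 0.25. Mapt, which encodes tau and is not a member of the list, had −1.11 ± 0.31. DESeq2 called Sema3g, Npnt and Mapt, and voom Sema3g and Npnt. Among the genes named by rule, Nphs1 had −0.19 ± 0.35, and its sign turned without day 11 replicate 1 (0.04). Podxl, the sialoprotein podocalyxin, was at 1279, 2001 and 2167 CPM against 2040, 841, 866 and 704 CPM (−0.71 ± 0.39), Synpo, the actin-associated synaptopodin, had −0.71 ± 0.27, and Wt1, a podocyte transcription factor, had −0.82 ± 0.58, with adjusted p of 0.868, 0.805 and 1 by edgeR. The summed podocyte level was 15170 to 17110 CPM under PBS and 10360 to 16140 CPM at day 11, which overlap.

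The endothelial list (23 members, median −0.0247) had 10 members above 0, and 3 without overlap, all with day 11 below (against 4.46% of the 3479 genes). Nrp1, a receptor for semaphorins and vascular growth factors, was at 919, 665 and 673 CPM against 480, 205, 381 and 188 CPM (−1.26 ± 0.34, adjusted p = 0.588). DESeq2 called Nrp1 (−1.21, adjusted p = 0.027). Kdr, the main VEGF receptor, had −0.64 ± 0.24, and Ehd3, a marker of glomerular endothelium, −0.51 ± 0.24, and neither was called. The mesangial and juxtaglomerular list (17 members, median −0.0556) had 8 members above 0, with 4 above and 2 below without overlap. Rgs5, a pericyte regulator of G protein signalling, had −1.38 ± 0.47, Sfrp2, a Wnt antagonist, −1.08 ± 0.39, and Serpine2, a protease inhibitor, 0.62 ± 0.28, and none was called. The parietal epithelial and crescent list had 6 members, 5 above 0, a median of 1.03 and 3 without overlap, with Ncoa7 at 1.52 ± 0.59, Cdh6 (a cadherin) at 1.96 ± 0.96 and Vcam1 (an adhesion molecule) at 1.41 ± 0.84, all uncalled.

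Markers of immune cells were low. The monocyte and macrophage list had 4 members at 50 CPM or more, with a median of 1.62, and its summed level was 347 to 454 CPM under PBS and 774 to 1300 CPM at day 11. Lgals3, which encodes galectin 3, was at 0.209, 1.17 and 29.4 CPM against 196, 234, 105 and 171 CPM (4.10 ± 1.17, adjusted p = 0.65; called at 7.97 without PBS replicate 3, adjusted p = 0.02), and Lyz2, a macrophage lysozyme that a near-identical copy may share reads with, at 18.0, 36.3 and 50.7 CPM against 100.7, 101.8, 171 and 152 CPM (1.91 ± 0.83). DESeq2 called Lgals3 (4.17, adjusted p = 0.0013). Both genes reached the 50 CPM mean only through their day 11 libraries, so the filter favoured a high list median. Over all 22 tested members the median was also 1.62. Csf1r, the receptor that defines the lineage, was at 46.7 to 133 CPM under PBS and 30.5 to 136 CPM at day 11. C1qa, of the complement C1q complex, was at 3.29 to 46.3 CPM against 33.3 to 59.3 CPM, and Tyrobp, a signalling adaptor, at 2.35 to 23.8 CPM against 29.1 to 79.0 CPM. Adgre1, another defining marker, had no read in the 4 day 11 libraries and reads in only 1 PBS library (5.87 CPM). C1qb was at 0.134 to 4.5 CPM under PBS and 0 to 89.5 CPM at day 11. Cd68 was at 0 to 7.39 against 0 to 32.0 CPM, and Aif1 at 0 to 2.11 against 0 to 25.8 CPM. C1qc was at 0 to 16.2 against 1.79 to 19.9 CPM. Of the 26 list members 25 had a read in at least 1 of the 7 libraries. Neutrophil and lymphocyte lists had 0 members at 50 CPM or more, with summed levels of 23.3 to 52.9 against 0 to 78.2 CPM and of 9.86 to 38.9 against 0 to 44.8 CPM, and Ly6g, Mpo, Elane, Cd3e and Cd3d had 0 reads in the 7 libraries. No member of the macrophage list was called by edgeR with all libraries. The summed level of the macrophage list was higher at day 11 without overlap, as was that of the actin list. Csf1r (−0.13 ± 0.77) was not higher, and Adgre1 was too low in both groups to be read. The part of macrophage content in the matrix and actin results was not tested.

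Most tubule and blood markers had log2 fold changes below 0, and none was called by edgeR with all libraries. Proximal tubule markers had 16 of 17 members below 0 (median −0.665), with summed levels of 2896 to 6464 CPM under PBS and 2104 to 4074 CPM at day 11, which overlap. Pck1, a gluconeogenic enzyme, was at 106, 135 and 219 CPM against 78.4, 11.1, 8.51 and 75.4 CPM (−1.82 ± 0.81), and Kap (−2.76 ± 1.20) and the dicarboxylate transporter Slc13a3 (−1.47 ± 0.76) were not called. Distal markers had 5 of 6 members below 0 (median −0.81), with summed levels of 2498 to 3078 against 842 to 2058 CPM. The sodium transporter Slc12a1 had −2.12 ± 0.66, Egf (epidermal growth factor) −1.61 ± 0.83 and Umod (uromodulin) −0.71 ± 0.44, all uncalled. Without day 11 replicate 3, where both were highest among the day 11 libraries, Slc12a1 (−3.15, adjusted p = 0.022) and Egf (−3.63, adjusted p = 0.0047) were called. Red cell markers had 4 of 4 below 0 (median −3.21), with summed levels of 2057 to 18340 against 506 to 2048 CPM, so that the lowest PBS library stood beside the highest at day 11. The haemoglobin genes Hbb-bs (−3.39 ± 0.95), Hba-a2 (−3.03 ± 0.94) and Hbb-bt (−3.50 ± 1.10) were not called by edgeR. Hbb-bs and Hbb-bt are close copies of each other, as Hba-a2 is of Hba-a1. Reads within each pair cannot be told apart with certainty. DESeq2 called Hbb-bs, Hba-a2 and Hbb-bt (adjusted p of 0.0083, 0.02 and 0.019) and Slc12a1 (−2.05, adjusted p = 0.02). With the mean of the proximal tubule list as a covariate 5 of the 7 calls were kept, and without mitochondrial and haemoglobin genes all 7 were. The part of tubule and blood content in the other differences was not tested.

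Mitochondrially encoded genes were all below 0, 12 of 12, with a median of −0.541 and 5 without overlap (against 4.46% of the 3479 genes), but none was called. The cytochrome b gene mt-Cytb had −0.92 ± 0.33, mt-Atp6, a subunit of ATP synthase, −0.61 ± 0.21 and mt-Nd3, a subunit of complex I, −1.23 ± 0.41. Named after their values were seen, mt-Nd4 had −0.57 ± 0.25, mt-Nd1 −0.61 ± 0.29 and mt-Co3 −0.51 ± 0.23. Of the nuclear-encoded respiratory chain genes 17 of 67 were above 0 and 50 below, with a median of −0.26 and 2 without overlap, both below, a smaller share than the 4.46% of all 3479 genes. Atp5b had −0.80 ± 0.36, Cox5b −0.89 ± 0.50 and Cox6a1 −0.49 ± 0.28. Genes of the citric acid cycle and fatty acid oxidation had a median of −0.115, with 15 of 22 below 0, and Acadm, which oxidises medium-chain fatty acids, had −1.13 ± 0.46, Mdh1 −0.96 ± 0.40 and Cpt1a 0.64 ± 0.48. Mitochondrial share and depth differed between the groups, as given above, and their part in these values was not tested.

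Glycolysis is named in the title of the study. Of its list 11 members were at 50 CPM or more, with 5 above 0 and 6 below, a median of −0.0855 and none without overlap, called or at an unadjusted p under 0.05. Ldha, which makes lactate, was at 75.3, 102 and 77.9 CPM against 86.3, 171, 214 and 174 CPM (0.92 ± 0.57, adjusted p = 0.997), Pgk1 (phosphoglycerate kinase) had −0.47 ± 0.58, with the sign turning without PBS replicate 3 (0.12), and Pkm (pyruvate kinase) 0.27 ± 0.40. Gapdh, named after its values were seen, had 0.27 ± 0.62, and its sign turned under voom (−0.18).

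The targeted gene Rapgef3 (GRCm38 chromosome 15, 97744770 to 97767972, minus strand) was at 160, 137 and 64.4 CPM under PBS and at 199.5, 170.3, 139 and 198.7 CPM at day 11, with a log2 fold change of 0.55 ± 0.43 (adjusted p = 1). Tags at the end of a transcript can lie outside the deleted part, and other glomerular cells keep the gene, so the deletion is not checked here. The Epac, Rap and protein kinase A list had 15 members, 10 above 0, a median of 0.265 and 2 without overlap. Akap12, a scaffold that anchors protein kinase A, was at 142, 238 and 109 CPM against 379, 546, 381 and 361 CPM (1.36 ± 0.38, adjusted p = 0.632). DESeq2 and voom called Akap12 (adjusted p of 0.0054 and 0.034). Akap2, another anchoring protein, was at 212, 221 and 350 CPM against 468, 617, 417 and 412 CPM (0.87 ± 0.57), and Rapgef1, another exchange factor for Rap, had 1.0 ± 0.63. Rapgef4, which encodes Epac2, had 0.27 ± 1.10, and its sign turned without PBS replicate 2 (−0.18) or day 11 replicate 3 (−0.12).

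The largest differences without overlap were mostly of low or uneven level. Sez6, a neuronal membrane protein, was at 114, 118 and 71.2 CPM under PBS and at 127, 440, 1162 and 5453 CPM at day 11, with a log2 fold change of 4.15 ± 1.17 (adjusted p = 0.805) that was 2.51 without day 11 replicate 4. The replication genes Mcm7 (3.01 ± 1.95), Top2a (2.79 ± 1.67) and the histone genes Hist1h2ap (3.33 ± 0.97) and Hist1h2ao (2.82 ± 1.10) did not overlap and were not called, and the histone genes are near-identical copies. The cell cycle list had 8 members, 7 above 0 and 4 without overlap, with a median of 1.02. Prss23, a secreted protease, had 2.99 ± 1.81 and Fosl2, an AP-1 transcription factor, 2.71 ± 1.26. Immediate early transcription factors had 8 members, 7 above 0, a median of 0.698 and 3 without overlap. Ier3, a stress-response gene, was at 127, 125 and 131 CPM against 314.5, 392.5, 453.8 and 402.7 CPM (1.61 ± 0.40, adjusted p = 0.337), and Klf4 had 1.59 ± 0.57 and Klf6 0.65 ± 0.46. Among the lower genes, Slc5a3, an inositol transporter, had −2.29 ± 0.63, Flrt1 −1.95 ± 0.74, Serpini1 (neuroserpin) −1.90 ± 1.23, Shisa3 −1.87 ± 0.63, Acss1 (acetyl-CoA synthetase) −1.79 ± 0.67, Nox4 (an NADPH oxidase) −1.75 ± 0.60, Sord (sorbitol dehydrogenase) −1.66 ± 0.47, and H2-Q7, a near-identical class I gene, −1.89 ± 0.69, and none was called by edgeR. DESeq2 called Sez6, Hist1h2ap, Hist1h2ao, Ier3, Slc5a3 and Sord, and voom Ier3.

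The same contrast in flox mice shares no library with the cKO one. Across the 3479 genes the Pearson correlation of the 2 sets of log2 fold changes was 0.27, given as a description, since genes share libraries and expression programmes. Of the 183 genes with all cKO day 11 libraries above, 134 (73.2%) were above 0 in flox, where 49.7% of all 3479 were, and their median was 1.15 in cKO and 0.46 in flox. Of those with all below, 114 (73.5%) were below 0 in flox, against 50.3% of all, with medians of −1.0 and −0.31. The medians in cKO are inflated by the choice of these genes on the cKO values. Of the called genes, Thsd7a had −1.53 ± 0.29 in flox, Col4a1 0.95 ± 0.26, Sparc 1.02 ± 0.21, Csrp1 0.56 ± 0.26, Tpm1 0.96 ± 0.29, Spp1 2.19 ± 0.46 and S100a6 2.05 ± 0.48. Each had the same sign as in cKO, and 0 were called in flox by edgeR. Over all 13898 tested genes, 1147 had an unadjusted p under 0.05 in flox by edgeR, and the calls numbered 1136 by DESeq2 and 26 by voom. Over the same 13898 genes in cKO, DESeq2 called 640 and voom 103.

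The difference of the 2 responses, tested as the interaction of genotype and stage, gave 0 called genes by edgeR and a smallest adjusted p of 0.614 among the 3479 genes. Without adjustment 964 of 13898 genes and 65 of 3479 had a p under 0.05. Over all 13898 the calls numbered 951 by DESeq2 and 4 by voom. The interaction was 0.99 for Csrp1 (95% interval 0.26 to 1.72), 0.81 for Col4a1 (0.06 to 1.56), 0.70 for Tpm1 (−0.10 to 1.51), 0.41 for Sparc (−0.19 to 1.01), 0.40 for S100a6 (−0.90 to 1.71), 0.19 for Spp1 (−1.05 to 1.43) and −0.54 for Thsd7a (−1.37 to 0.29), and none passed adjustment by edgeR. DESeq2 called Csrp1 (1.09, adjusted p = 0.022). A p that misses the threshold does not show that the genotypes respond alike: the intervals of all 7 genes reach beyond 1 log2 unit in at least 1 direction.

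**Figure D5:**
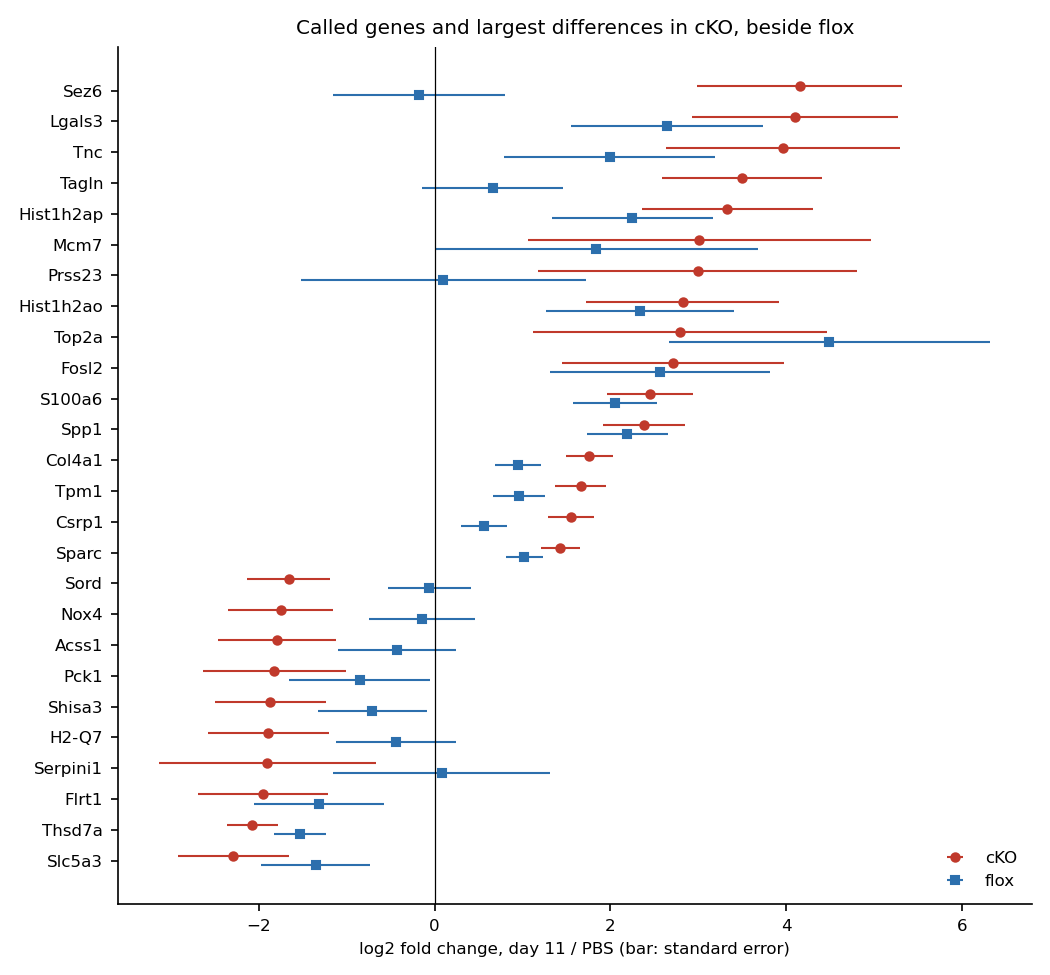
Log2 fold change of day 11 against PBS in cKO (red circles) and flox (blue squares) with standard errors, for the called genes and the 10 largest rises and 10 largest falls without overlap in cKO. Called genes lie on the same side of 0 in both genotypes.

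Between cKO day 11 and cKO day 4 edgeR called 0 genes, with a smallest adjusted p of 0.0504 among the 3479 (292 had an unadjusted p under 0.05, and 1436 of all tested). Over all tested genes the calls numbered 911 by DESeq2, with 6 of the 7 genes (all but S100a6) among them, and 10 by voom, with Tpm1 and Sparc. Both comparisons use the day 11 libraries, so their values are given side by side and not compared. The log2 fold changes of day 11 against day 4 were 2.23 for Spp1, 1.12 for Col4a1, 0.77 for Sparc, 0.96 for Csrp1, 0.87 for Tpm1, 1.33 for S100a6 and −0.89 for Thsd7a. Against PBS they were 2.38, 1.76, 1.43, 1.55, 1.66, 2.45 and −2.07, in the same order of genes.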

How the data were processed

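The authors deposited 1 table per library, whose values are unnormalized estimated counts per gene, per the file headers. Per the submitters' processing notes, the tools were FastQC, Picard, DRAGEN and fastp, with build mm10. What is not given in the sources used here are versions, annotation, strand setting and treatment of duplicate reads, so overlapping and antisense genes are uncertain. Of the values above 0, 95.2% were whole within 0.005, and 35513 of 35598 genes (99.8%) were matched by identifier to GENCODE M21 symbols. The labels number the libraries of a group and do not state that each came from a separate mouse, so p-values measure the spread between libraries.

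After rounding, counts entered the robust quasi-likelihood F test of edgeR 4.0.16 (R 4.3.3), with TMM factors of 0.751 to 1.12 and a filterByExpr minimum of 10. All 21 libraries entered 1 model of 6 group means with 15 residual degrees of freedom and 13898 genes, with a common biological coefficient of variation of 1.66 (median 0.694 at 50 CPM or more). The threshold for a call was a Benjamini-Hochberg adjusted p of 0.05. CPM are TMM-adjusted, and each SE is on the log2 scale. Levels of different genes were not compared. Lists are described by counts and medians.

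Named genes were every called gene, the 10 largest rises and falls without overlap (passing over predicted, mitochondrial and haemoglobin genes), the 3 members of each list with the smallest unadjusted p, and Rapgef3, Rapgef4, Nphs1, Podxl, Synpo and Wt1. Some genes that this rule names are not reported here. The members and lists were chosen with earlier results of these data known. In a test on simulated counts for cKO day 11 against cKO PBS over 13663 genes, 0 of 100 genes changed 2-fold and 5 of 100 changed 4-fold were recovered, with 1 false call. Alternatives were DESeq2 1.42.0, limma 3.58.1 (voom with quality weights), median-ratio size factors, other filters, the compared libraries alone, a covariate for the proximal tubule list, the replicate number as a block, exclusion of mitochondrial and haemoglobin genes, and leaving out single libraries. Removal of CT010467.1 and thinning of the libraries to the smallest total (4550545 reads) were chosen after seeing the data. Plots used matplotlib 3.10.9 and Python 3.11.15.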

Additional observations from a re-analysis of the deposited data

Results flagged for a closer look

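Among 208 sets of 4 day 11 values (203 genes examined and 5 library measures), 8 (3.8%) had 1 library whose gap to the nearest other exceeded 0.829 of the range, and chance alone gives about 1 in 20. Genes were taken on the log scale and library measures without transformation. In cKO day 11 replicate 1 the values were low for Itgb1 (888 CPM), Col3a1 (138), Hba-a1 (96.9), Cd2ap (155.04) and Ahnak (549), the last a large scaffold protein gene. In replicate 3, the shallowest library, Hist1h2ap was low (283 CPM), and Ccl2, a monocyte chemokine, was high (2.02 CPM) at a level near that of no reads. In replicate 2 Akap12 was high (546 CPM).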

How the results depend on the processing

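The direction of the 7 calls was the same under every alternative tried. All 7 were also called by DESeq2, voom, median-ratio size factors, thinned libraries, the compared libraries alone, no low-count filter, and without mitochondrial and haemoglobin genes or CT010467.1. With only the 3479 genes tested 6 were kept (S100a6 was lost), and leaving out single libraries kept 3 to 7. The number of calls over all tested genes depended on the tool: 6 higher and 1 lower became 354 and 286 by DESeq2, 36 and 67 by voom, 10 and 2 without a low-count filter, and 2 to 6 and 1 to 4 without single libraries. For the interaction DESeq2 called 250 higher and 701 lower, and voom 4 lower. For day 11 against day 4 the 0 higher and 0 lower calls became 569 and 342 by DESeq2, 7 and 3 by voom, 7 and 1 without a filter, 2 and 2 with only the 3479 genes, and 0 to 19 and 0 to 1 without single libraries (19 without cKO day 4 replicate 1). Non-overlapping genes numbered 251 to 307 above and 241 to 298 below with a library left out, since fewer libraries overlap less often. Of the 147 named genes without a call DESeq2 called 37. Without the filter Actb, Sema3g, Acta2, Flna and Cald1 were called as well, and by voom Tagln, Sema3g, Npnt, Actb, Ier3, Akap12, Acta2, Flna and Cfl1. The cause of the other differences was not tested.

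The replicate numbers of the titles did not pair the libraries: deviations of same-numbered libraries correlated at −0.0049, 0.026 and −0.027, and not every library correlated best with its own number. With the replicate block 6 genes were called, all among the 7, and the call of Spp1 was lost (2.36, adjusted p = 0.12), and 1 higher gene was called for day 11 against day 4.

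Signs turned in 8 of the 154 genes named and in 19 of the other 49 examined and not named, most of which were near 0. Across single libraries left out, the log2 fold change ran from −7.84 to 1.05 for Ccl2, −0.54 to 0.02 for Cd59a, −0.13 to 0.76 for Cnn2, −0.47 to 0.24 for Csf1r, −0.31 to 0.59 for Gapdh, −0.35 to 0.04 for Nphs1, −0.91 to 0.12 for Pgk1 and −0.18 to 0.77 for Rapgef4. Cd59a was at 0.00 and Gapdh at −0.18 by voom, and Rapgef4 at −0.04 with the tubule covariate. The median of 9 of 31 gene lists changed sign under at least 1 alternative, and those medians ran from −0.32 to 0.06 for endothelium, −0.21 to 0.09 for mesangium, −0.43 to 0.13 for complement, −0.18 to 0.14 for glycolysis, −0.36 to 0.10 for the citric acid cycle list, −0.32 to 0.15 for antioxidants, −0.01 to 0.27 for chaperones, −0.27 to 0.22 for heat shock proteins and −0.12 to 0.10 for ribosomal proteins. That of TGF-beta ran from 0.11 to 0.81. The interaction ran from −0.15 to 0.86 for S100a6 and −0.06 to 0.45 for Spp1. In simulated data few 4-fold changes were recovered, so an uncalled gene is not shown to be unchanged.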

Other observations

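Other gene groups at 50 CPM or more had values without a call. Of the complement list 1 of 4 members was above 0 (median −0.155, but 0.325 over all 17 tested), with C3 at 0.61 ± 1.16 and Cd59a at −0.14 ± 0.43. Of antigen presentation 7 of 9 were above 0 (median 0.544, but −0.0011 over all 18 tested), with Cd74, the invariant chain, at 105, 126 and 77.7 CPM under PBS and 103, 591, 91.1 and 418 CPM at day 11, so that the groups overlapped, and H2-Aa, a class II gene, at 0.69 ± 0.37. Of interferon response 2 of 6 were above 0 (median −0.301, and −0.0317 over all 17 tested), and Bst2 (−1.08 ± 0.64) and Irf9 (−1.08 ± 0.77) did not overlap, while Ifitm3 had 0.46 ± 0.25. Chemokines and adhesion molecules were all above 0, 5 of 5 (median 0.896, and 0.479 over all 13 tested), with Cxcl16 at 0.90 ± 1.04 and Il34 at 0.90 ± 1.24.

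Of the TGF-beta list 4 of 6 were above 0 (median 0.536, and 0.194 over all 19 tested). Tgfb2, a ligand of the family, was at 10.9, 27.2 and 32.4 CPM against 77.9, 139, 82.4 and 106 CPM, without overlap (2.11 ± 1.54), while Ltbp4, which stores TGF-beta in the matrix, had −0.57 ± 0.50. Lysosomal genes had a median of 0.265 (11 of 14 above 0), with Ctss at 1.34 ± 0.79, Ctsd at 0.56 ± 0.34 and Lamp1 at 0.38 ± 0.24. Endoplasmic reticulum chaperones had a median of 0.214, with P4hb at 0.67 ± 0.38, Hspa5 at 0.39 ± 0.28 and Atf4, a stress-response factor, at 0.54 ± 0.42. Antioxidant genes had a median of −0.0276, with Sod1 at −0.45 ± 0.25, Mt2 at 0.79 ± 0.45 and Gstm1 at −0.66 ± 0.42, and heat shock proteins −0.0448, with Hspb1 at 0.68 ± 0.48, Hspd1 at −0.58 ± 0.45 and Dnaja1 at 0.52 ± 0.46. Ribosomal protein genes had a median of 0.0306, with Rpl22 at −0.91 ± 0.33, Rps21 at −0.77 ± 0.31 and Rps28 at −0.69 ± 0.42. Ccnd1, a G1 cyclin, had 0.55 ± 0.35.

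Genes chosen after their values were seen, outside any list's leading members, included Clu (clusterin, 1.57 ± 0.45), Lgals1 (galectin 1, 2.65 ± 1.19), Tnfaip2 (1.81 ± 0.51), Adamts1 (a matrix protease, 1.38 ± 0.40) and Clic1 (1.19 ± 0.34), all higher at day 11 without overlap and uncalled by edgeR. Id3, an inhibitor of transcription factors, had −1.36 ± 0.56 and Oxct1, an enzyme of ketone use, −0.87 ± 0.33.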
